A study of Mus musculus with 11 samples.

Results

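The mitochondrial carrier family was examined in kidney S3 proximal tubule, the last straight stretch of tubule in the outer medulla, in mice with and without Tamm-Horsfall protein. Members were all genes whose probe set carried a single symbol that began with Slc25a and a number, together with the uncoupling protein genes Ucp1 and Ucp3, and for each gene the brightest probe set was kept. This gave 48 genes out of 22180 genes with a single-symbol probe set, and each of the 48 had 1 such probe set, so no choice between probe sets was needed. Ucp2 was not analysed here.

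All mice were of strain 129/SvEv. The control group was wild type (genotype WT, 6 arrays), and the other group was homozygous for loss of the Tamm-Horsfall protein gene (THP -/-, 5 arrays); age, sex and treatment are not given in the labels, and neither is the construction of the null allele. Of the 2 batches, the first held 5 wild-type arrays beside 3 of knockout, and the second held 1 wild-type array beside 2 of knockout. The labels do not state that different arrays stand for different mice, so p-values measure only the spread between these arrays, which may be technical. Values are log2 signals from Affymetrix arrays, on which a difference of 1 is a doubling of signal, and every difference below is knockout minus wild type. Group levels are means ± SD over 6 wild-type and 5 knockout arrays, and fitted differences carry the SE.

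Mitochondrial carriers are small proteins of the inner mitochondrial membrane, built from repeats of paired membrane-spanning helices. Each carries particular metabolites, nucleotides, cofactors or ions across a membrane that is otherwise closed to them, most often by exchanging one molecule for another. S3 tubule cells draw nearly all of their ATP from mitochondria, where fatty acids are a main fuel, and they also make ammonia and glucose from amino acids, so carriers for ADP and ATP, phosphate, acylcarnitines, dicarboxylates and amino acids all serve this segment.

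Markers of the segment were read first. All 7 measured S3 markers lay above the upper quartile on all arrays, with Atp11a at a wild-type mean of 10.60, Slc7a13 at 10.23 and Cyp2e1 at 10.16. Some markers of other segments did so too, so this alone does not set S3 apart. Among them were Slc22a6 of S1 and S2, and Cldn10 and Slc12a1 of the thick ascending limb, the latter 2 at 8.20 and 6.43. Since probe sets differ in affinity, sums over marker lists compare arrays and not lists. The S3 sum ran from 12.24 to 12.81 in wild type and from 12.38 to 13.22 in knockout. That of the thick ascending limb ran from 8.68 to 9.62 and from 9.01 to 11.17, and that of S1 and S2 from 8.43 to 10.45 and from 7.77 to 10.08. The distal tubule and collecting duct sum ran from 7.70 to 8.88 and from 7.41 to 10.43. Between genotypes a fitted difference above 0 was found for 6 of 7 S3 markers and 6 of 7 thick ascending limb markers. It was found for 5 of 8 distal tubule and collecting duct markers and 0 of 6 S1 and S2 markers. The share was 53.3% of all genes and 72.1% of the 4247 bright genes described below. Differences ran from -0.40 to 1.11 (Slc22a7) in S3 and from -1.78 (Slc22a8) to -0.22 in S1 and S2. None passed after adjustment over all probe sets, and the part of these differences in the carrier results was not tested. Umod, which encodes the missing protein, differed by -1.52 ± 0.24 (SE, limma adjusted p = 0.281 with Benjamini-Hochberg). It read from 5.27 to 6.74 in wild type and 3.68, 4.26, 4.67, 4.55 and 5.27 in knockout replicates 1 to 5. Knockout replicate 5 thus equalled the lowest wild-type value. The labels do not say which part of the gene is missing. Array medians lay between 3.85 and 4.01, and correlations between arrays over all probe sets between 0.901 and 0.955.

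Signals of the carrier genes spanned most of the range of the arrays. In wild type the means ran from 8.56 for Slc25a39 to 2.86 for Slc25a24. On all 11 arrays 22 of the 48 genes lay above the upper quartile of all probe sets (4.97 to 5.07), and 15 did so on no array. At the dim end 5 genes, Slc25a41, Slc25a31, Slc25a54, Slc25a43 and Slc25a24, lay below the array median on all arrays, and Slc25a24 lay below the lower quartile on 9 of 11. Probe sets differ in affinity and none of the values used here measures background, so this is an order of signals and not of transcript amounts, and a dim signal was not shown to be expression. In 46 of 47 adjacent pairs the wild-type ranges overlapped, the exception being Slc25a1 and Slc25a3. Compared array by array, 2 of the 47 pairs kept their order on all 6 wild-type arrays, namely Slc25a39 above Slc25a1 and Slc25a1 above Slc25a3.

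**Figure D1:**
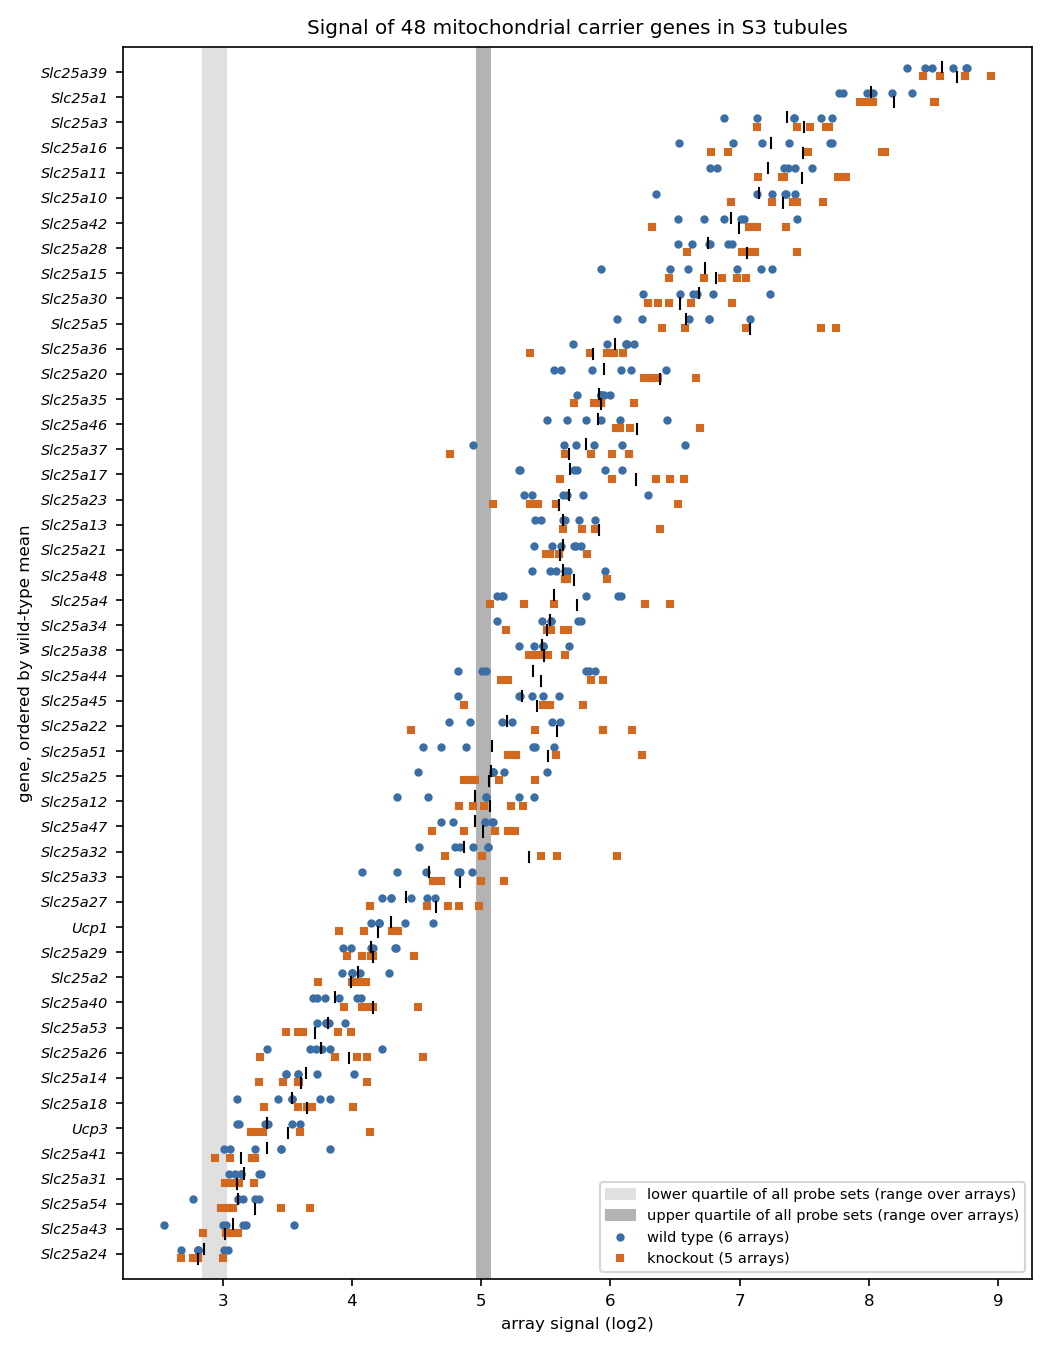
Signal of the 48 carrier genes, ordered by wild-type mean, with log2 array signal on the horizontal axis; blue circles are the 6 wild-type arrays, orange squares the 5 knockout arrays, black ticks the group means, and the grey bands the ranges of the lower and upper quartiles of all probe sets over the arrays. Wild-type means fall from 8.56 for Slc25a39 to 2.86 for Slc25a24, and in every gene the orange and blue points overlap.

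No carrier gene differed between genotypes after correction. In limma, with batch as a term and Benjamini-Hochberg adjustment over all 41345 probe sets, 0 of 48 members passed an adjusted p of 0.05, where 0% of all probe sets passed, and the smallest adjusted p among members was 0.788. At an unadjusted p under 0.05 there were 2 members, Slc25a17 and Slc25a20, or 4.17%, against 5.64% of all genes; both were higher in knockout, a direction in which 3.64% of all genes passed. The knockout arrays overlapped the wild-type arrays in every member, so 0 members were separated, against 0.627% of all genes. Only Slc25a17 had a difference larger than 0.5 in size, a threshold that 2.81% of all genes passed.

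Differences leaned towards higher signal in knockout, as they did in other bright genes. A fitted difference above 0 was found for 32 of 48 members (66.7%), with a median of 0.09, against 53.3% of all genes and a median of 0.01. Among the 22 members above the upper quartile on all arrays 16 (72.7%) were above 0, with a median of 0.10. Among the 4247 genes at least as bright as the dimmest of those 22 the share was 72.1%, with a median of 0.12, so the share in bright carriers was near that of bright genes in general. With quantile normalization these came to 12 of 22 and 60.7%, and without knockout replicate 3 to 12 of 22 and 65.2%. With the replicate number added to the model (the replicate block fit) they came to 11 of 22 and 53%. Their medians were then -0.00833 and 0.02. In that fit the genotype term rests only on replicates 1 to 3 of each group, all in batch 1. Over all members the count without knockout replicate 3 was 24 of 48 and the median 0.0065. Within batch 1 the difference was above 0 in 32 members, below it in 15 and 0 in 1, with a median of 0.11; within batch 2 it was above 0 in 30 members, with a median of 0.07. The sign was the same in both batches for 29 of 48 members, and for 54.3% of all genes.

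**Figure D2:**
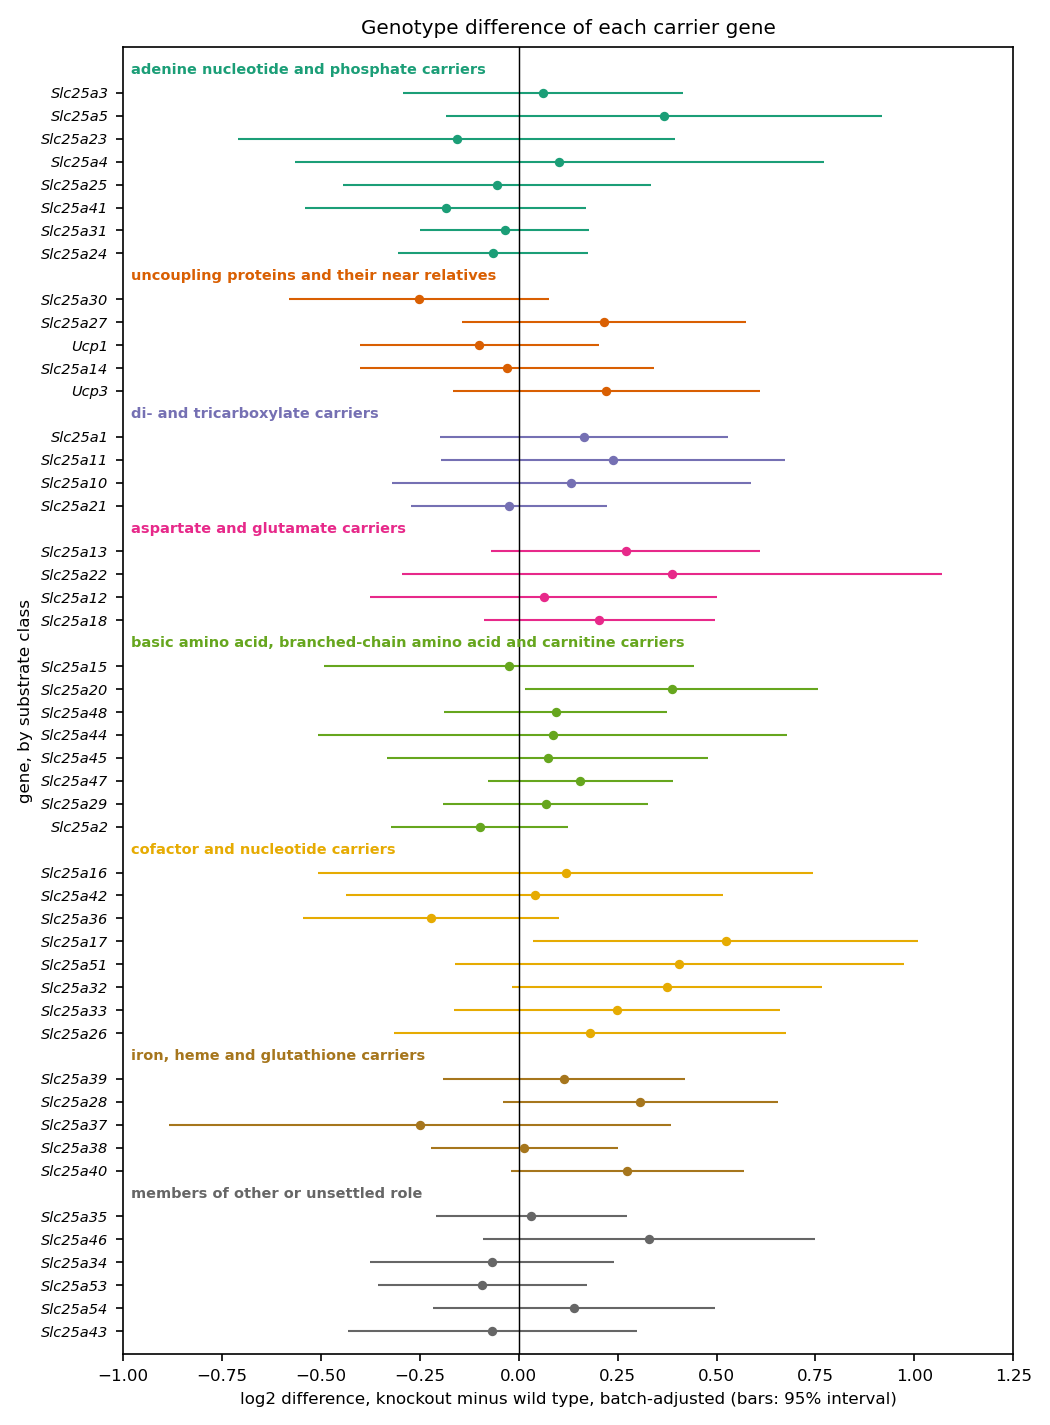
Batch-adjusted log2 difference, knockout minus wild type, on the horizontal axis for each of the 48 carrier genes, grouped and coloured by substrate class; points are fitted differences and bars 95% intervals. The unadjusted interval lies clear of 0 only for Slc25a17 (0.04 to 1.01) and Slc25a20 (0.02 to 0.76), and neither passed after adjustment over all probe sets.

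ADP and ATP exchangers and the phosphate carrier supply the substrates of ATP synthase and export its product. Slc25a3, the phosphate carrier, had wild-type signals from 6.88 to 7.71 with a median of 7.42, and read 7.44, 7.13, 7.67, 7.69 and 7.54 in knockout replicates 1 to 5. All knockout values thus lay inside the wild-type range, and the difference of 0.06 ± 0.16 (SE) turned to -0.04 without knockout replicate 3, to -0.02 without wild-type replicate 4 and to -0.04 with quantile normalization. The widely expressed adenine nucleotide translocase Slc25a5 read from 6.05 to 7.08 with a median of 6.69 in wild type and 6.40, 6.58, 7.63, 7.74 and 7.05 in knockout. Knockout replicates 3 and 4 stood above all wild-type arrays while replicates 1, 2 and 5 lay within their range. The difference was 0.37 ± 0.25 (SE), with a limma adjusted p of 0.85 (Benjamini-Hochberg), an interval from -0.18 to 0.92 and values of 0.39 within batch 1 and 0.32 within batch 2; it was 0.10 without knockout replicate 3.

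Slc25a4, the translocase best known from heart and muscle, also had replicates 3 and 4 above all wild-type arrays, at 5.07, 5.33, 6.46, 6.27 and 5.56 in knockout against a wild-type range of 5.12 to 6.08, and its replicate 1 lay below that range. The pair also shared knockout replicates 3 and 4 as their highest arrays. The testis translocase Slc25a31 was dim and even, at 3.17 ± 0.1 in wild type and 3.11 ± 0.0835 in knockout. Of the calcium-regulated ATP-Mg and phosphate carriers, Slc25a23 was at 5.68 ± 0.345 in wild type and 5.60 ± 0.543 in knockout and Slc25a25 at 5.08 ± 0.323 and 5.06 ± 0.226, whereas Slc25a24 and Slc25a41 were dim. Across the 8 genes of this class 3 fitted differences were above 0 and 5 below, with a median of -0.05.

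Promoter sequence was set beside these values because the class holds a bright and a dim gene of one function, Slc25a5 and Slc25a31. The RefSeq windows, from 250 bases before to 50 bases after the listed start in build GRCm38.p6, are chrX:36795347-36795646 for Slc25a5 and chr3:40708621-40708920 for Slc25a31, both on the plus strand and written 5′ to 3′ with each CG pair in capitals.
Slc25a5: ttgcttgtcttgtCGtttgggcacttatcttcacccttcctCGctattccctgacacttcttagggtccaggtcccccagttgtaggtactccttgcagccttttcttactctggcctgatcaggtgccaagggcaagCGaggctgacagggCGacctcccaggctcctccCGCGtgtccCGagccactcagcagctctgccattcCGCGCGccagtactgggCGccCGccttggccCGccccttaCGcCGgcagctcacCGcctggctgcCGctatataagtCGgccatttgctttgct
Slc25a31: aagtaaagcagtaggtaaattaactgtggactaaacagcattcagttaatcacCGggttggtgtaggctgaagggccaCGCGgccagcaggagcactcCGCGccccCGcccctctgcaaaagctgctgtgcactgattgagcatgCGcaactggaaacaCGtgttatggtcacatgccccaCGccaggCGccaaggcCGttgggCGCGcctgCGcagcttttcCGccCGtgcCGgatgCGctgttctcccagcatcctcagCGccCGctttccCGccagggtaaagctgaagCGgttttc
The Slc25a5 window held 18 CG pairs and that of the dim Slc25a31 held 22, so the number of CG pairs did not follow the signal in this pair. Both windows contained GGGCGG (on either strand), and neither contained CCAAT or TATAAA. Only these exact letters were searched, and the Slc25a5 window also holds TATATAAG, which that search does not count.

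A listed RefSeq window of that length was found for 38 of the 48 members, with 48 starts in all. GGGCGG, searched on both strands, occurred in 79.2% of the member windows against 35.7% of all 32851 listed windows, and the median number of CG pairs was 15 against 7. TATAAA occurred in 4.17% of member windows against 13.6% of all. CCAAT occurred in 45.8% of member windows and 37.4% of all. Among members it was in 13 of 23 windows of the genes above the upper quartile on all arrays. The other members had it in 9 of 25 windows. Within these 25, windows of genes above the quartile on no array had it in 2 of 14. Most of the 9 thus fell in genes above it on some arrays only. Several windows belong to 1 gene, letter matches are not binding sites, and these counts carry no test.

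Uncoupling proteins let protons back into the matrix, and Ucp1 is the heat-producing one of brown fat. Ucp1 read between 4.15 and 4.63, with a median of 4.21, in wild type and 4.31, 4.09, 4.34, 3.90 and 4.36 in knockout. Knockout replicates 2 and 4 lay below the wild-type range and the others inside it, with a difference of -0.10 ± 0.14 (SE) that was 0.06 in the replicate block fit, which adds the replicate number to the model. Ucp1 lay above the array median on all 11 arrays. Of the 5 measured fat cell markers Adipoq, Cidea, Lep, Plin1 and Fabp4 had wild-type means of 2.70, 3.56, 3.96, 4.04 and 4.15, and Fabp4 read 4.98 and 5.90 in knockout replicates 3 and 4 against at most 4.46 in wild type. Summed, the fat cell list ran from 5.93 to 6.30 in wild type and from 6.09 to 6.65 in knockout, and its part in the Ucp1 signal was not tested. Ucp3, the uncoupling protein of skeletal muscle, lay between 3.11 and 3.60 in wild type, with a median of 3.34, and at 4.14, 3.60, 3.31, 3.22 and 3.25 in knockout. Its difference of 0.22 ± 0.18 (SE) was 0.34 within batch 1 and -0.12 within batch 2, and 0.04 without knockout replicate 1, the one array that stood high.

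Slc25a30, the kidney mitochondrial carrier related to the uncoupling proteins, was the bright gene of this class and had the most negative fitted difference of the family. Wild-type arrays read from 6.25 to 7.23 with a median of 6.66, and knockout arrays 6.29, 6.62, 6.37, 6.94 and 6.45. Knockout values all fell inside the wild-type range, and only wild-type replicate 6 exceeded 7. The difference of -0.25 ± 0.15 (SE) had an interval from -0.58 to 0.08 and a limma adjusted p of 0.831 (Benjamini-Hochberg), with -0.15 within batch 1 and -0.54 within batch 2. The related brain carriers Slc25a27 and Slc25a14 were at 4.42 ± 0.168 and 3.65 ± 0.202 in wild type and 4.65 ± 0.322 and 3.61 ± 0.312 in knockout.

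Carriers of di- and tricarboxylates move citric acid cycle intermediates between matrix and cytosol, for lipid synthesis, gluconeogenesis and the redox shuttles. Of the 4 genes, 3 were among the 6 brightest of the family. Slc25a1, which exports citrate, read from 7.77 to 8.33 in wild type (median 8.01) and 7.93, 7.99, 8.51, 8.50 and 8.03 in knockout. Again knockout replicates 3 and 4 alone exceeded the wild-type range, and the difference was 0.16 ± 0.17 (SE), or 0.05 without knockout replicate 3 and -0.04 in the replicate block fit. Slc25a11, the oxoglutarate and malate exchanger, lay between 6.77 and 7.56 (median 7.36) in wild type and at 7.33, 7.34, 7.76, 7.82 and 7.14 in knockout.

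Knockout replicates 3 and 4 were again the only ones above the wild-type range. The Slc25a11 difference, 0.24 ± 0.20 (SE), was 0.30 within batch 1 and 0.05 within batch 2. Slc25a10, the dicarboxylate carrier that swaps malate or succinate for phosphate, lay between 6.35 and 7.43 in wild type (median 7.30) and at 7.44, 6.93, 7.25, 7.41 and 7.64 in knockout. Its spread came mostly from wild-type replicate 5, at 6.35 against 7.13 or more on the other wild-type arrays, and without that array the difference of 0.13 became -0.0028. The oxoadipate carrier Slc25a21 varied little, at 5.63 ± 0.136 in wild type and 5.61 ± 0.125 in knockout.

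Aspartate and glutamate carriers belong to the malate-aspartate shuttle and feed glutamate to matrix enzymes, the source of renal ammonia. In this class 4 of 4 fitted differences were above 0, against 53.3% of all genes, with a median of 0.24, and 0 passed the test in limma, at either an adjusted or an unadjusted p of 0.05. Slc25a13 (citrin), the aspartate and glutamate exchanger of epithelial tissues, read from 5.42 to 5.88 in wild type (median 5.64) and 5.78, 5.63, 6.38, 5.89 and 5.88 in knockout. Knockout replicate 3 stood clearly above the wild-type arrays and replicate 4 barely so, and the difference of 0.27 ± 0.15 (SE; limma adjusted p = 0.826 with Benjamini-Hochberg) was 0.11 without it. The related exchanger Slc25a12 was at 4.95 ± 0.408 in wild type and 5.07 ± 0.203 in knockout.

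Slc25a22, a glutamate carrier, was the member with the widest spread in knockout, at 5.94, 4.46, 5.94, 6.17 and 5.42, against 4.75 to 5.61 in wild type. Knockout arrays thus lay both below and above all wild-type arrays. The second glutamate carrier, Slc25a18, was above the array median on 1 of 11 arrays, with wild-type values from 3.11 to 3.83 and knockout values of 3.69, 3.58, 4.01, 3.32 and 3.65. Its difference was 0.20 ± 0.13 (SE), with 0.14 within batch 1 and 0.38 within batch 2.

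In the class listed as amino acid and acylcarnitine carriers 6 of 8 differences were above 0, with a median of 0.08. Of the 8, 1 was at an unadjusted limma p under 0.05. Over all genes 53.3% were above 0 and 5.64% reached that p. The 8 include Slc25a45, Slc25a47 and Slc25a48, all above 0, whose substrates are not given here. Slc25a20, the carnitine-acylcarnitine carrier, brings long-chain acylcarnitines into the matrix for beta-oxidation. Wild-type arrays read from 5.56 to 6.43 with a median of 5.97, and knockout arrays 6.26, 6.32, 6.66, 6.37 and 6.30. Knockout arrays all lay at or above 6.26, with replicate 3 apart from the others at 6.66. By contrast, 5 of the 6 wild-type arrays lay at or below 6.16. Wild-type replicate 6, which alone represents wild type in batch 2, read 6.43. The difference of 0.39 ± 0.17 (SE) had an unadjusted limma p of 0.0427, an adjusted p of 0.797 and, by exact permutation of genotype inside batches, p = 0.0476 (two-sided, where the design allows no less than 0.00595). It was 0.56 within batch 1 and -0.10 within batch 2, and 0.27 without knockout replicate 3.

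The ornithine carrier Slc25a15, which links the cytosolic and matrix steps of ornithine and arginine metabolism, read from 5.93 to 7.25 in wild type (median 6.79) and 6.45, 6.72, 6.86, 7.05 and 6.98 in knockout. All knockout arrays lay inside the wild-type range. Its difference of -0.02 ± 0.21 (SE) had either sign: it was 0.08 with no batch term, 0.09 with batch as a random block and 0.05 within batch 1. Slc25a44, a carrier of branched-chain amino acids, fell into higher and lower arrays in both groups, from 4.82 to 5.88 in wild type and from 5.15 to 5.94 in knockout. Slc25a45, Slc25a47 and Slc25a48 had wild-type means of 5.31, 4.95 and 5.63 and knockout means of 5.43, 5.01 and 5.72. The basic amino acid carriers Slc25a29 and Slc25a2 were near the array medians, at 4.15 and 4.05 in wild type and 4.17 and 3.99 in knockout.

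Carriers of cofactors and nucleotides held the largest fitted differences of the family. Of the 8 genes 7 had a difference above 0, with a median of 0.21, and 1, Slc25a17, was at an unadjusted p under 0.05, against 53.3% and 5.64% of all genes. Slc25a17 differs from most of the family in its place, since it is the carrier of the peroxisome membrane, where it moves coenzyme A, FAD and related adenine nucleotides. It read between 5.29 and 6.09 in wild type (median 5.73) and 6.01, 6.35, 6.57, 6.46 and 5.61 in knockout. Knockout replicates 2, 3 and 4 exceeded all wild-type arrays and replicate 5 lay among the lower ones. The difference of 0.52 ± 0.22 (SE) had an interval from 0.04 to 1.01, an unadjusted limma p of 0.0376 and an adjusted p of 0.788, while the exact permutation within batches gave p = 0.0774. Within batch 1 it was 0.68 and within batch 2 it was 0.07.

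Slc25a32, which carries folate and FAD, read from 4.52 to 5.05 in wild type (median 4.89) and 4.72, 5.01, 5.46, 6.05 and 5.59 in knockout. Here knockout replicates 3, 4 and 5 stood above all wild-type arrays. The difference of 0.37 ± 0.18 (SE; limma adjusted p = 0.82 with Benjamini-Hochberg) was 0.23 within batch 1 and 0.77 within batch 2. Slc25a51, the NAD carrier, lay between 4.55 and 5.56 in wild type (median 5.14) and at 5.27, 5.27, 5.58, 6.24 and 5.21 in knockout. Knockout replicate 4 was its highest array, and the difference of 0.41 ± 0.26 (SE) was -0.09 in the replicate block fit.

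The 2 brightest genes of the class, which belong to a branch linked to coenzyme A transport, varied more between arrays of a group than between groups. Slc25a16 read from 6.53 to 7.71 in wild type (median 7.28) and 6.91, 6.78, 8.12, 8.10 and 7.53 in knockout, so that knockout replicates 1 and 2 were more than 1 log2 unit below replicates 3 and 4. Its difference of 0.12 ± 0.28 (SE) turned to -0.17 without knockout replicate 3 and to -0.15 in the replicate block fit. Slc25a42 read from 6.52 to 7.44 in wild type (median 6.95) and 7.36, 6.32, 7.08, 7.07 and 7.13 in knockout. Knockout replicate 2 alone fell outside the wild-type range. The Slc25a42 difference of 0.04 ± 0.22 (SE) turned to -0.10 without knockout replicate 1 and to -0.24 in the replicate block fit.

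Slc25a36, a pyrimidine nucleotide carrier, was the exception in direction. Wild-type arrays lay between 5.71 and 6.18 (median 6.12) and knockout arrays at 6.10, 5.38, 5.84, 5.97 and 6.03. Knockout replicate 2 alone fell below the wild-type range, and the difference of -0.22 ± 0.15 (SE) was -0.08 without it. The second pyrimidine nucleotide carrier, Slc25a33, was at 4.60 ± 0.331 in wild type and 4.84 ± 0.24 in knockout, and the S-adenosylmethionine carrier Slc25a26 at 3.76 ± 0.286 and 3.97 ± 0.457.

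Carriers for iron, heme synthesis and glutathione included the brightest gene of the family. Slc25a39, which is needed for glutathione import into mitochondria, read from 8.29 to 8.76 in wild type (median 8.57) and 8.74, 8.42, 8.94, 8.74 and 8.55 in knockout. Its 2 groups covered nearly the same range, and the difference was 0.11 ± 0.14 (SE), or 0.02 without knockout replicate 3. The close relative Slc25a40 was far dimmer, at 3.70 to 4.07 in wild type (median 3.85) and 4.11, 3.94, 4.51, 4.16 and 4.08 in knockout. All knockout arrays but replicate 2 were above every wild-type array. Slc25a40 differed by 0.27 ± 0.13 (SE), with an unadjusted limma p of 0.0639 and an adjusted p of 0.823. Exact permutation inside batches, which carries no correction over genes, gave p = 0.0298. The difference was 0.35 within batch 1, 0.05 within batch 2 and 0.15 without knockout replicate 3.

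Mitoferrin 2, Slc25a28, imports iron in cells outside the red cell lineage and was bright, from 6.52 to 6.94 in wild type (median 6.77) and at 6.59, 7.09, 7.44, 7.12 and 7.02 in knockout. Knockout replicates 2 to 5 lay above all wild-type arrays and replicate 1 near the lowest. The difference of 0.31 ± 0.16 (SE; limma adjusted p = 0.825 with Benjamini-Hochberg) was 0.26 within batch 1 and 0.44 within batch 2, and 0.18 without knockout replicate 3. Mitoferrin 1, Slc25a37, best known from erythroid cells, was among the most variable members, from 4.94 to 6.58 in wild type and at 5.85, 4.76, 5.65, 6.01 and 6.14 in knockout. Slc25a38, the glycine carrier of heme synthesis, was nearly constant, at 5.47 ± 0.127 and 5.49 ± 0.107.

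The remaining 6 members have other or unsettled roles. Slc25a46, an outer membrane protein of mitochondrial shape, read from 5.51 to 6.44 in wild type (median 5.87) and 6.15, 6.06, 6.69, 6.07 and 6.04 in knockout. Its knockout arrays were alike except for replicate 3, and the difference of 0.33 ± 0.19 (SE; limma adjusted p = 0.827 with Benjamini-Hochberg) was 0.18 without that array. Slc25a35 had one of the smallest spreads of the family, from 5.74 to 6.0 in wild type (median 5.93) and at 5.87, 5.93, 6.18, 5.93 and 5.72 in knockout, with a difference of 0.03 ± 0.11 (SE) that was -0.03 with quantile normalization and -0.04 without knockout replicate 3. Slc25a34 was at 5.53 and 5.51, and Slc25a53, Slc25a54 and Slc25a43 were dim, at 3.82, 3.12 and 3.08 in wild type and 3.71, 3.25 and 3.02 in knockout.

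Position on the chromosome gave 4 pairs of members that are next to each other among RefSeq protein-coding genes of GRCm38.p6, and 2 of these paired a bright with a dim signal. On chromosome X Slc25a5, above the upper quartile on all arrays, lies beside Slc25a43, below the median on all arrays. On chromosome 17 the same holds for Slc25a23 and Slc25a41. Slc25a54 and Slc25a24 on chromosome 3 were both dim, and Slc25a29 and Slc25a47 on chromosome 12 lay between.

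Extreme values gathered on a few arrays of each genotype. Knockout replicate 3 held the highest value of 13 of the 48 members and knockout replicate 4 of 9, and wild-type replicate 6 of 8, while wild-type replicate 4 held the lowest value of 13 and wild-type replicate 5 of 7. Over all genes those shares were 9.43%, 13% and 8.07% for the highest and 14.6% and 8.38% for the lowest value. The mean of the 22 bright carriers was 6.81 and 6.82 in knockout replicates 3 and 4, 6.21 and 6.26 in wild-type replicates 4 and 5, and between 6.40 and 6.64 in the other 7 arrays. The 4247 bright genes followed a like course, at 6.71, 6.80, 6.24 and 6.37 in those 4 arrays and from 6.43 to 6.57 in the rest. The same knockout replicates 3 and 4 had the highest summed S3 markers, at 13.22 and 13.00, and thick ascending limb markers, at 9.88 and 11.17. The distal tubule and collecting duct list stood at 10.43 in knockout replicate 4 against 7.41 to 8.88 on the other arrays, with Slc12a3 at 9.08, Aqp2 at 8.48 and Calb1 at 7.02 there. The S1 and S2 list was lowest in knockout replicate 2, at 7.77, and wild-type replicate 5, at 8.43. On the other arrays it stood between 9.49 and 10.45. Without knockout replicate 4 the bright carriers with a difference above 0 were 16 of 22, with a median of 0.06, and the part of these markers in the carrier signals was not tested.

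**Figure D3:**
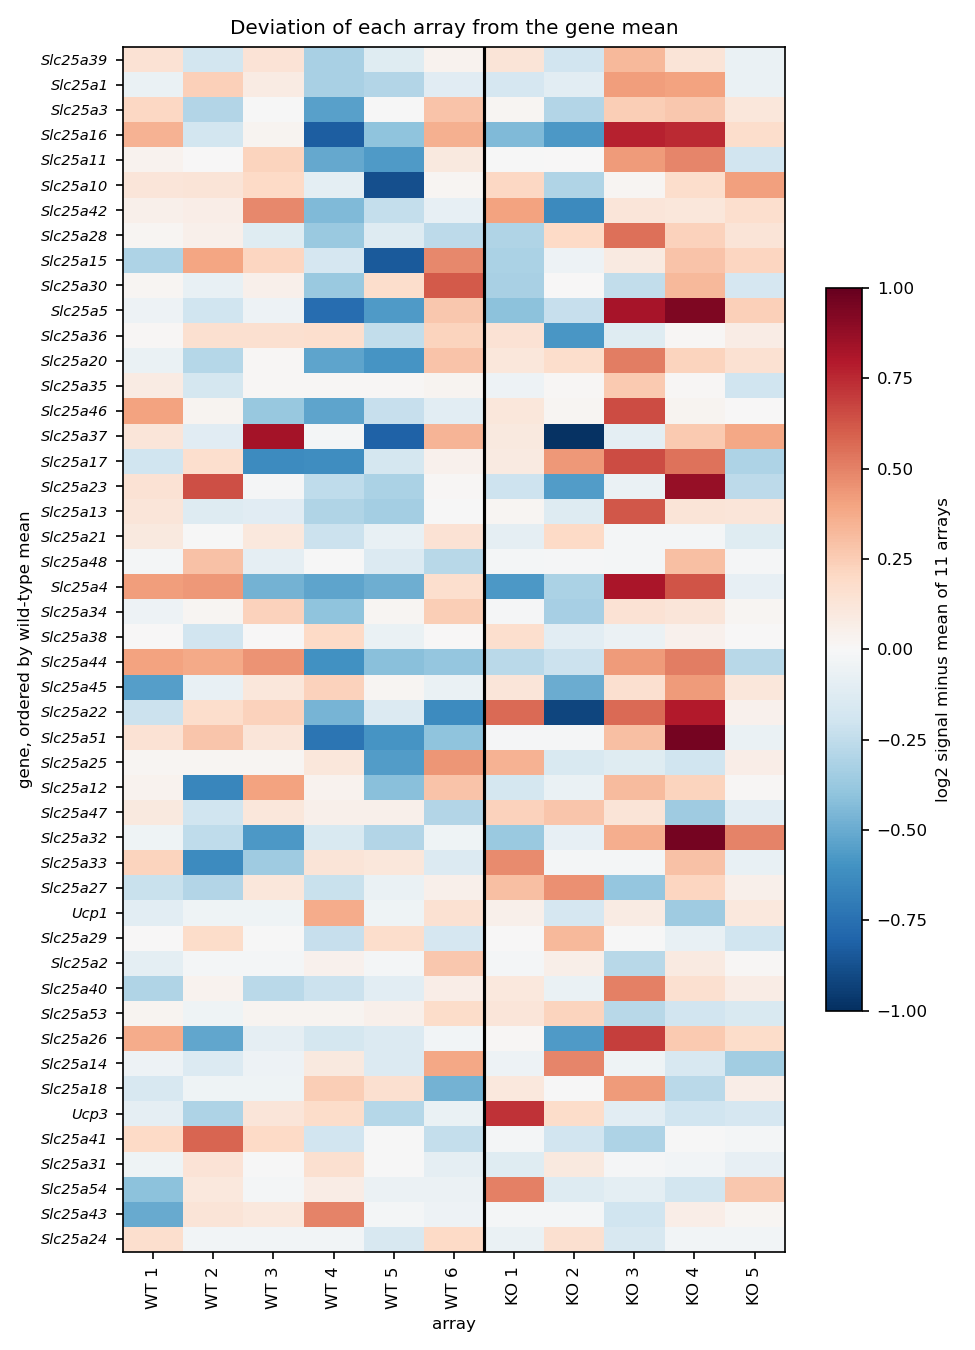
Deviation of each of the 11 arrays (columns) from the mean of all arrays for each carrier gene (rows, ordered by wild-type mean), in log2 units from blue (lower) to red (higher); the black line parts wild type from knockout. In most of the upper rows knockout replicates 3 and 4 are red and wild-type replicates 4 and 5 blue, and the 13 highest values of knockout replicate 3 and 13 lowest of wild-type replicate 4 fall in these columns.

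**Figure D4:**
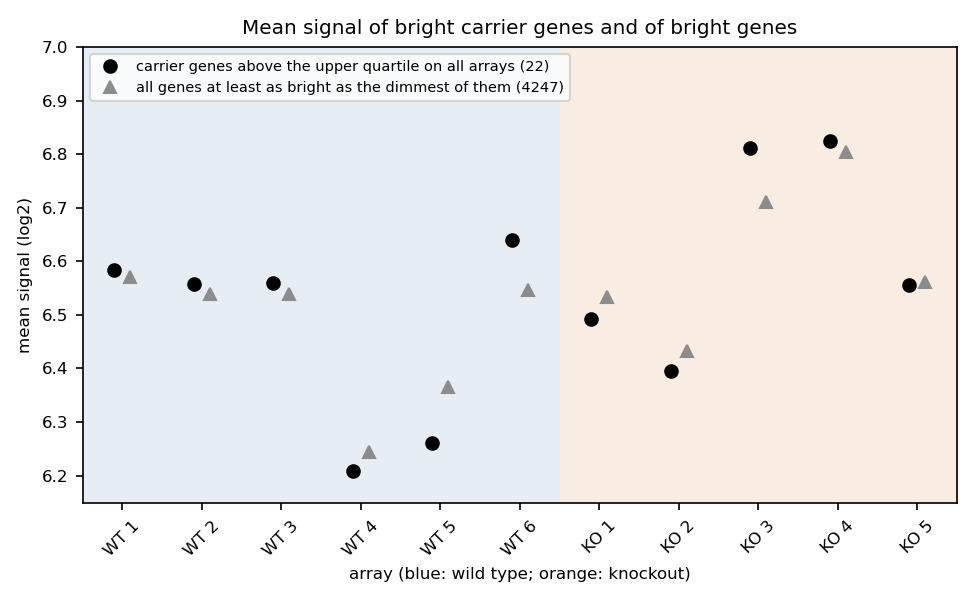
Mean log2 signal (vertical axis) on each array of the 22 carrier genes above the upper quartile on all arrays (black circles) and of the 4247 genes at least as bright as the dimmest of them (grey triangles), with wild-type arrays shaded blue and knockout arrays orange. Both series are lowest in wild-type replicate 4, at 6.21 and 6.24, and highest in knockout replicate 4, at 6.82 and 6.80.

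Genes that work with the carriers were then read in the same fit. Of 113 listed partner genes 101 were measured; 0 passed in limma over all probe sets, where 0% of all probe sets passed, and 10 were at an unadjusted p under 0.05, all with a difference above 0. That is 9.90%, against 5.64% of all genes in either direction and 3.64% in the higher direction alone. No share at that p is given for the bright genes. The count of partner genes at that p came to 3 without knockout replicate 3, 6 without knockout replicate 1 and 5 without knockout replicate 4. It was 5 without wild-type replicate 6 and 4 within batch 1 alone. These last settings share their fitted differences, since batch 2 holds no other wild-type array. A difference above 0 was found for 76 of 101 (75.2%), with a median of 0.13, where the share was 53.3% of all genes and 72.1% of the 4247 bright genes. It was found for 67 without knockout replicate 3, knockout replicate 4 or wild-type replicate 6, and for 54 in the replicate block fit. These shares are the background for each partner list below.

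Carnitine shuttle and beta-oxidation enzymes, the partners of Slc25a20, had differences above 0 in 9 of 9 cases, with a median of 0.21 and 3 at an unadjusted p under 0.05, a level reached by 5.64% of all genes. Of the 9, 8 lay above the upper quartile on all arrays, where 72.1% of bright genes were above 0. Crot, the peroxisomal carnitine octanoyltransferase, was at 8.78 ± 0.57 in wild type and 9.63 ± 0.515 in knockout. Cpt2, which frees acyl groups from carnitine inside mitochondria, was at 6.31 ± 0.287 and 6.84 ± 0.406. Their differences were 0.86 ± 0.32 and 0.49 ± 0.21 (SE), or 0.66 and 0.29 without knockout replicate 3, and their limma adjusted p were 0.765 and 0.788 (Benjamini-Hochberg).

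Glutathione enzymes, beside Slc25a39 and Slc25a40, had 8 of 9 differences above 0, against 53.3% of all genes and 72.1% of bright genes, and 2 at an unadjusted p under 0.05, against 5.64% of all genes. The exception was the glutathione peroxidase Gpx1, at -0.34 ± 0.32 (SE). Gclc, which sets the rate of glutathione synthesis, differed by 0.84 ± 0.28 (SE) and Gss, its second enzyme, by 0.30 ± 0.13. In the malate-aspartate and citrate shuttle list 10 of 11 were above 0, and those of smallest p were the mitochondrial aspartate aminotransferase Got2, at 0.40 ± 0.19, and malate dehydrogenase Mdh2, at 0.25 ± 0.15 (SE). Got2 had other probe sets, and with their mean in place of the brightest its difference was 0.09. Ornithine, arginine and proline enzymes went the other way in count, with 4 of 11 above 0 and a median of -0.12. However, arginase 2 (Arg2) was at 0.69 ± 0.26 and argininosuccinate lyase (Asl) at 0.47 ± 0.19 (SE). The Arg2 difference was 0.94 within batch 1 and -0.005 within batch 2, and that of Asl 0.30 and 0.95.

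ATP synthase subunits, the partners of the ADP, ATP and phosphate carriers, had 10 of 15 differences above 0 and a median of 0.03, with Atp5a1 at 0.26 ± 0.16 and Atp5j2 at -0.31 ± 0.18 (SE). Other inner membrane transporters had 14 of 17 above 0, including Letm1, a potassium and proton exchanger, at 0.32 ± 0.13, while the sideroflexin Sfxn5 was at -0.26 ± 0.14 (SE). Outer membrane channels and kinases had 9 of 11 above 0, with the import pore Tomm40 at 0.35 ± 0.17 and the creatine kinase Ckmt2 at 0.25 ± 0.14. Iron-sulfur and heme enzymes had 6 of 9 above 0, with Glrx5 at 0.33 ± 0.24 and Alas1, the first enzyme of heme synthesis, at 0.21 ± 0.23. Regulators of mitochondrial biogenesis had 6 of 9 above 0, with the transcription factors Nrf1 at 0.32 ± 0.13 and Pparg at 0.41 ± 0.17 (SE), both at an unadjusted p under 0.05. The 3 below 0 included Esrra, at -0.35 ± 0.16 (SE) with a wild-type mean of 7.05. Pparg and Ckmt2 lay above the array median on 0 of 11 arrays, and a dim signal was not shown to be expression. The limma adjusted p of the genes named in this and the preceding paragraph lay between 0.758 and 0.905 (Benjamini-Hochberg over all probe sets).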

How the data were processed

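Arrays were labelled with the Affymetrix WT Pico kit from 2 ng of total RNA, per the labels' protocols. The deposited table holds log2 values for 41345 probe sets, and the submitters' processing notes name Partek 6.6 and RMA, which draws array distributions together; batch correction, filters and genome build are not given in the sources used here. Probe sets were named from the platform annotation (23521 with 1 symbol). Each was fitted with limma 3.58.1 in R 4.3.3 (genotype and batch as fixed terms, eBayes, two-sided, Benjamini-Hochberg over all probe sets, threshold 0.05, 8 residual degrees of freedom, no filter). On simulated data the fit recovered 55 of 100 probe sets changed by 1 and 95 of 100 changed by 2, with 8 false calls. The simulated noise was independent, with no batch or array-wide shift. Changes below 1, as in all members, were not simulated. Single genes were also tested by exact permutation within batches. Values in every array are given for members chosen by rule: the 10 with the highest wild-type mean, the 12 with the smallest p, Ucp1 and Ucp3, and the brightest of each role class; other members are given by level, some also by array after their values were seen, and 2 genes per partner list by smallest p. Members and lists were chosen with earlier results of these data known. The comparison with bright genes and the promoter motifs were chosen after seeing the data. Plots used matplotlib 3.10.9.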

Additional observations from a re-analysis of the deposited data

Results flagged for a closer look

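Single arrays stood apart from the rest of their group in 7 of the 96 combinations of gene and group examined. The cut-offs used mark about 1 in 20 groups of independent normal values. Here some values repeat within a group and arrays shift together across genes, so that rate does not carry over. Knockout replicate 3 was high for Slc25a46 (6.69, next array 6.15) and for Slc25a20 (6.66, next 6.37). Knockout replicate 4 was high for Slc25a48 (5.97, next 5.66), and knockout replicate 2 was low for Slc25a42 (6.32, next 7.07). In wild type, replicate 5 was low for Slc25a10 (6.35, next 7.13), replicate 2 for Slc25a35 (5.74, next 5.93) and replicate 1 for the dim Slc25a54 (2.77, next 3.12).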

How the results depend on the processing

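Members and partner genes past the threshold stayed at 0 under all settings run. The count of members with a difference above 0 lay between 29 and 33 of 48 under the other models and normalizations (28 of 38 with the filter on dim probe sets), and between 24 and 33 with each array left out; the median then lay between 0.0065 and 0.166. Members at an unadjusted p under 0.05 were 4 with no batch term and with batch as a random block, 1 when replicate number was a block, and 0 to 4 with each array left out. Partner genes at that level were 4 in batch 1 alone, 3 with the replicate block, and 3 to 12 with each array left out; the partner counts were added after seeing the data. The cause of these moves was not tested. Signs turned for Slc25a15 (0.082 with no batch term, 0.0936 with batch as a random block, 0.0507 in batch 1 alone) and Slc25a42 (-0.024 in batch 1 alone). With the replicate block they turned for Slc25a1 (-0.0367), Slc25a16 (-0.15), Slc25a10 (-0.17), Slc25a42 (-0.24), Slc25a51 (-0.0867) and Ucp1 (0.0567), and with quantile normalization for Slc25a3 (-0.0397), Slc25a42 (-0.0478) and Slc25a35 (-0.0298). With each array left out, signs also turned for Slc25a15 (-0.155 to 0.0668), Slc25a42 (-0.0964 to 0.258), Slc25a3 (-0.0377 to 0.146), Slc25a16 (-0.17 to 0.29), Slc25a10 (-0.0028 to 0.24), Slc25a35 (-0.0439 to 0.0873) and Alas1 (-0.0020 to 0.41). The number of arrays limits the precision, and background could not be measured. Replicate numbers did not pair the arrays: deviations of same-numbered arrays correlated between -0.125 and 0.0957. With the replicate block the genotype term rests only on replicates 1 to 3 of each group, all in batch 1.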
